A study of Rattus norvegicus with 24 samples.

Results

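The genes described here encode the main fibrillar collagens of the heart and proteins that assemble, link or cut the matrix around its cells. They are Col1a1 (ENSRNOG00000003897), Col1a2 (ENSRNOG00000011292), Col3a1 (ENSRNOG00000003357), Fn1 (ENSRNOG00000014288), Lox (ENSRNOG00000014426) and Mmp2 (ENSRNOG00000016695). They were chosen by gene ID, and all 6 were found among the 23098 Ensembl gene IDs of the deposited count table. The table gives no symbols, so each symbol is the one paired with the ID when the genes were chosen. RNA was measured in the free wall of the left ventricle of male Wistar rats, with 6 libraries in each of 4 groups. In the SCI 1d, SCI 3d and SCI 12w groups the spinal cord was completely transected high in the thoracic segments (SCI stands for spinal cord injury), and tissue was taken 1 day, 3 days or 12 weeks after surgery. The SHAM group had the dura opened at that level with the cord left whole, and its tissue was taken 7 days after surgery. No SCI group is therefore matched to SHAM in time after surgery. The labels used here give no age, and whether the libraries of a group are from separate rats is not stated, so p-values measure the spread between these samples. Lists of other matrix genes and of cell type markers need gene symbols and were not analysed, and the tissue label was not checked against markers.

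Type I and type III collagen form the fibres that carry tension in the heart wall. They are made mainly by cardiac fibroblasts, secreted as procollagen, trimmed and packed into fibrils outside the cell. Fibronectin is laid down on the cell surface and serves as a scaffold for new collagen fibrils. Lysyl oxidase, the product of Lox, oxidises lysines in collagen and elastin so that the fibres become cross-linked, and the gelatinase encoded by Mmp2 cleaves denatured collagen and other matrix proteins. Collagen proteins last long in tissue, so the RNA level is a measure of the supply of message and not of the amount of fibre.

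The depth was 15002476 to 70340174 counts per library, and the shallowest libraries were SCI 12w replicate 1 and SCI 3d replicate 5 (16756399 counts). Levels are counts relative to library size (CPM) after scaling of each library with TMM factors, a correction for RNA composition. They are not divided by gene length, so levels of different genes are not compared. Of all gene IDs 15065 had enough counts to be tested, the 6 matrix genes among them. A gene is called when the adjusted p of edgeR's quasi-likelihood test (Benjamini-Hochberg, all tested IDs) is under 0.05. Lox had the fewest counts, 22 to 483 per library, and the other 5 genes had at least 1032 in each library. Bulk RNA cannot tell fewer cells of a type from less RNA per cell.

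The RefSeq promoter table used here (build GRCr8) matched 1 of the 6 genes by symbol, Col1a2. It is shown because no other of the 6 genes had an entry, and no link between its sequence and its level was tested. The stretch is chr4:33518307-33518406 on the + strand, the upstream 100 bases of the 250 before the annotated start of Col1a2. Capitals mark matches to the CCAAT box on the reverse strand, the core of the TATA box and, on the reverse strand, the core of a Smad-binding element, in that order from the left.
Col1a2: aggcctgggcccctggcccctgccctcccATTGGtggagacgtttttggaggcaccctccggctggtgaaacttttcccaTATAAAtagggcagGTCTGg
The 250 bases were searched on both strands for 4 motifs. The TATA box core, spelled TATAAA, began 170 bases before the annotated start, and 12.9% of 33469 windows of the same length before annotated starts held it on either strand. The CCAAT box was found on the reverse strand at 221 bases, and 34.0% of windows held it. The Smad-binding core, spelled CAGAC, was found on the reverse strand at 156 and, outside the stretch shown, at 23 bases, and 42.9% of windows held it. No core of a GC box, spelled GGGCGG, was found in the window, and 30.5% of windows held one. These matches are descriptions of the sequence, and no binding was measured. Whether any match, that to the TATA box core included, acts on the annotated start from its position was not tested.

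At 12 weeks after SCI the message of all 3 fibrillar collagen chains was far lower than in SHAM, while fibronectin, lysyl oxidase and the gelatinase were not called. Col1a1 was 4.03-fold lower, Col3a1 3.98-fold lower and Col1a2 2.24-fold lower. The call was made for 3 of the 6 genes, all lower, where 22.1% of all tested IDs were called in either direction and 10.9% lower. The median log2 fold change of the 6 genes was -0.70, against 0.0074 over all tested IDs. It falls in the gap between the collagen chains, at -1.17 or lower, and Mmp2, Lox and Fn1, at -0.23, -0.15 and 0.26. The time since surgery differs between these groups, so an effect of the injury and one of the longer time cannot be told apart.

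Col1a1 encodes the alpha1 chain of type I collagen, the most abundant fibrillar collagen of the heart. Its level ran from 49.3 through a median of 58.9 to 66.9 CPM in SCI 12w, against 177 through 215 to 313 CPM in SHAM. The ranges did not overlap, and the highest SCI 12w library was well under the lowest SHAM library. The log2 fold change was -2.01 (SE 0.268, edgeR adjusted p = 1.56e-05), and 31 of the 15065 tested IDs had a lower one. Col1a2 encodes the alpha2 chain of the same trimer. It had 97.1 CPM at the lowest, 127 at the median and 132 at the highest in SCI 12w, against 228, 271 and 322 CPM in SHAM. Again the groups did not overlap, with a log2 fold change of -1.17 (SE 0.174, edgeR adjusted p = 5.31e-05). Col3a1 encodes the chain of type III collagen, which forms finer fibrils together with type I. It had 101 to 134 CPM in SCI 12w with a median of 112, against 371 to 600 CPM in SHAM with a median of 412. Its log2 fold change was -1.99 (SE 0.306, edgeR adjusted p = 7.06e-05), and 32 IDs had a lower one. Non-overlapping ranges were seen for these 3 genes of the 6, where 9.6% of all tested IDs had them in this comparison.

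Over all 6 libraries of a group, Col1a1 and Col3a1 also varied less in SCI 12w than in SHAM, where replicates 1 and 2 stood apart. For Col1a2 the spreads of the 2 groups were closer, but that of SCI 12w came mostly from replicate 3, as described below. The coefficient of variation of Col1a1 was 12.1% in SCI 12w, against 25.6% in SHAM, that of Col3a1 was 12.0% against 22.3%, and that of Col1a2 was 10.5% against 13.6%. At the earlier times it was larger, 33.1% in SCI 1d and 50.5% in SCI 3d for Col1a1, 38.1% and 59.3% for Col3a1, and 23.7% and 34.0% for Col1a2. These are spreads of 6 libraries each and were not compared by a test. In SHAM the spread of Col1a1 and Col3a1 came largely from replicates 1 and 2. They had 309 and 313 CPM of Col1a1, where the other SHAM libraries had 177 to 224 CPM. For Col3a1 they had 577 and 600 CPM, where the others had 371 to 415 CPM. The SCI 12w libraries had 15002476 to 44709028 counts and the SHAM libraries 27097306 to 70340174. With counts thinned to the depth of the shallowest library the log2 fold changes were -2.02 for Col1a1, -1.16 for Col1a2 and -1.99 for Col3a1, and without the 2 shallowest libraries they were -2.04, -1.17 and -1.96. SCI 12w replicate 3 had the lowest Col1a2 level of its group, at 97.1 CPM where the other 5 libraries had 126 to 132. Without it the log2 fold changes of Col1a1, Col1a2 and Col3a1 were -1.98, -1.11 and -1.96, and each was called.

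**Figure D1:**
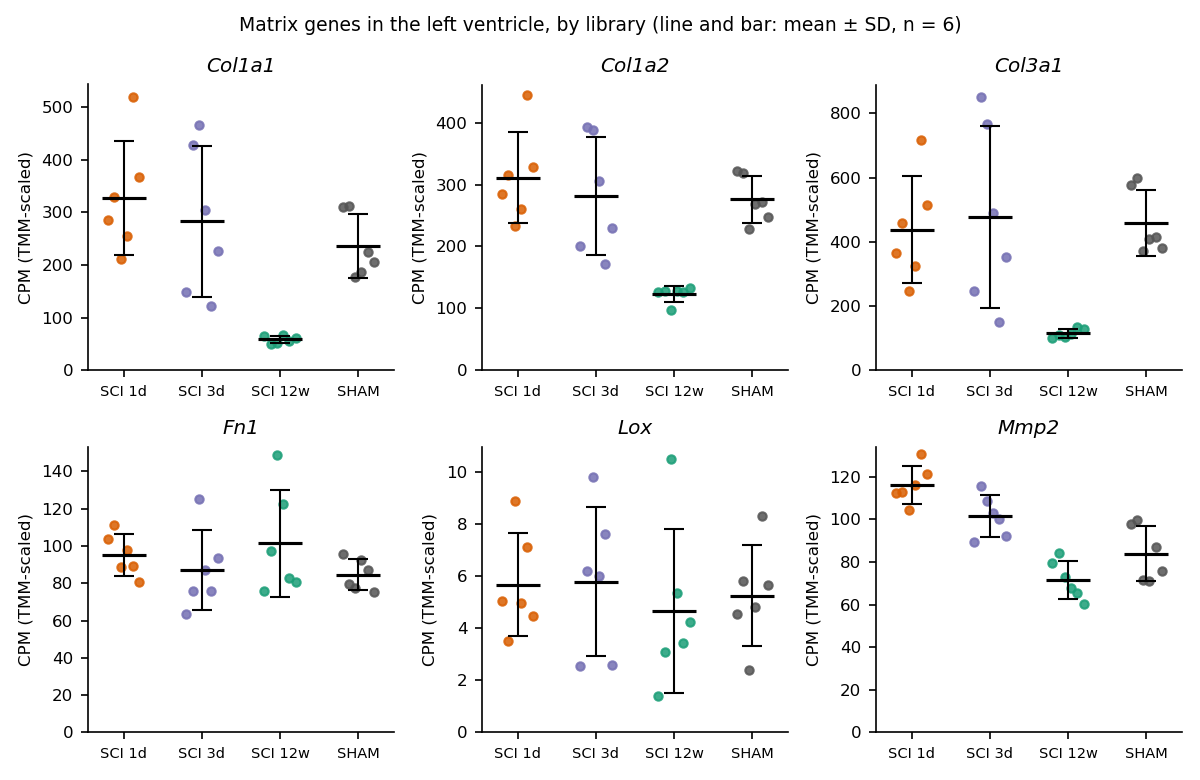
Level of each gene in each library, as TMM-scaled CPM on a linear axis that starts at 0, in SCI 1d, SCI 3d, SCI 12w and SHAM. Points are libraries, and lines with bars are the mean ± SD (n = 6). The SCI 12w points of Col1a1, Col1a2 and Col3a1 lie below all points of the other groups.

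The collagen chains were also lower at 12 weeks than at either early time. At 12 weeks compared with 1 day, 4 of the 6 genes were called and all were lower, where 33.9% of tested IDs were called and 16.1% lower. The SCI 12w and SCI 1d libraries carry numbers 77 to 88 in the labels, while SCI 3d and SHAM carry 57 to 68. No label says what these numbers mark, but this comparison lies within 1 run of numbers. The comparisons of SCI 12w and SCI 1d with SHAM do not, and there the run of numbers and the group cannot be told apart. The log2 fold change of SCI 12w over SCI 1d was -2.48 for Col1a1 (SE 0.273, edgeR adjusted p = 7.46e-07), which is 5.60-fold lower. For Col1a2 it was -1.34 (SE 0.175, edgeR adjusted p = 5.26e-06) and for Col3a1 -1.93 (SE 0.306, edgeR adjusted p = 4.66e-05). Mmp2 was lower by a smaller amount, with a log2 fold change of -0.70 (SE 0.0931, edgeR adjusted p = 6.36e-06). The CPM ranges of these 4 genes did not overlap between SCI 12w and SCI 1d, as was the case for 13.4% of tested IDs.

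The same 4 genes were called lower at 12 weeks than at 3 days, where 31.3% of tested IDs were called and 15.3% lower. The log2 fold changes were -2.27 for Col1a1 (SE 0.271), -1.20 for Col1a2 (SE 0.174), -2.05 for Col3a1 (SE 0.307) and -0.51 for Mmp2 (SE 0.0931). Their edgeR adjusted p-values were 2.48e-06, 2.04e-05, 2.73e-05 and 0.000242 in that order. The ranges of these 4 genes were again apart, where 10.1% of tested IDs had ranges apart. For SCI 3d and SCI 12w the runs of library numbers differ, so a difference between runs and one between times cannot be told apart here.

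**Figure D2:**
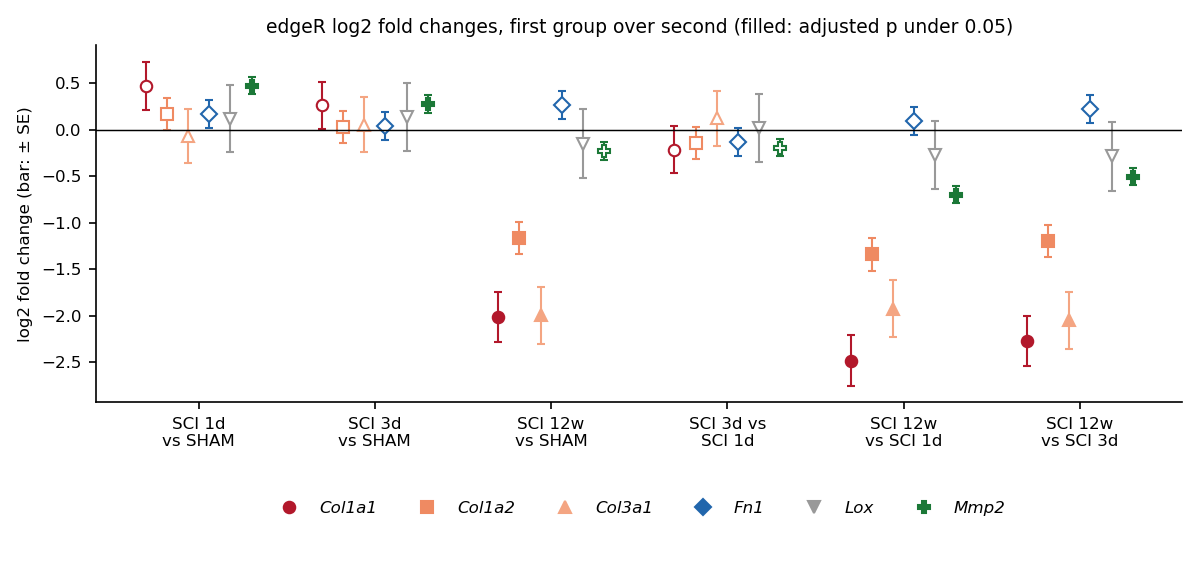
Log2 fold change of each gene in the 6 comparisons from 1 edgeR fit over 24 libraries, first group over second, with bars of ± SE. Filled symbols have an adjusted p under 0.05. Col1a1, Col1a2 and Col3a1 are filled and lie between -1.17 and -2.48 in each comparison of SCI 12w, and Fn1 and Lox are open throughout.

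In the first days after SCI no collagen chain was called against SHAM. Of the 6 genes edgeR called Mmp2 alone, which was 1.39-fold higher at 1 day and 1.21-fold higher at 3 days. Of the 6 genes 1 was called at 1 day, where 24% of tested IDs were called and 11.9% higher, and 1 at 3 days, where 17.5% were called and 8.88% higher. The median log2 fold change of the 6 genes was 0.17 at 1 day and 0.097 at 3 days, against 0.00050 and 0.0076 over all tested IDs. A count of 1 in 6 is near these background shares.

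Mmp2 encodes a gelatinase that is made as an inactive proenzyme and that fibroblasts express at rest. Its level had a lowest, median and highest value of 105, 115 and 131 CPM in SCI 1d, 89.5, 102 and 116 CPM in SCI 3d, 60.5, 70.2 and 84.4 CPM in SCI 12w, and 71.2, 81.4 and 99.7 CPM in SHAM. The SCI 1d libraries lay above all SHAM libraries without overlap, as 14.8% of tested IDs did in either direction. The log2 fold change was 0.47 at 1 day (SE 0.0925, edgeR adjusted p = 0.000648). SCI 1d and SHAM carry different runs of library numbers, so run and group cannot be told apart there. At 3 days the ranges overlapped although each of the 6 SCI 3d libraries was above the SHAM mean, and the log2 fold change was 0.28 (SE 0.0926, edgeR adjusted p = 0.0391). This comparison lies within 1 run of library numbers, but its call is at the edge. It was not made when any of SHAM replicates 3, 4 and 6 or SCI 3d replicates 2, 3, 4 and 5 was left out, with log2 fold changes of 0.23 to 0.28 and edgeR adjusted p-values of 0.0555 to 0.0996.

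At 12 weeks Mmp2 averaged 71.7 ± 8.98 CPM in SCI 12w and 83.8 ± 12.9 CPM in SHAM (SD, n = 6 in each). The log2 fold change of -0.23 was not called (SE 0.0929, edgeR adjusted p = 0.0805). Leaving out SHAM replicate 3 or 4 gave a call at -0.27 in both cases (edgeR adjusted p = 0.0457 and 0.0464), and leaving out SCI 12w replicate 2 gave one at -0.28 (edgeR adjusted p = 0.0368). The order of the Mmp2 means was SCI 1d, SCI 3d, SHAM and SCI 12w from high to low. Of the neighbours in that order, SCI 1d and SCI 3d were not told apart (log2 fold change of SCI 3d over SCI 1d -0.19, edgeR adjusted p = 0.271), nor were SCI 12w and SHAM.

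The collagen chains at the early times had wide ranges. Col1a1 had 211 to 519 CPM in SCI 1d with a median of 307, 122 to 465 CPM in SCI 3d with a median of 266, and 177 to 313 CPM in SHAM with a median of 215. All ranges overlapped with that of SHAM. Its log2 fold change was 0.47 at 1 day (SE 0.257, edgeR adjusted p = 0.187) and 0.26 at 3 days (SE 0.257, adjusted p = 0.532). Its change at 1 day was as large as that of Mmp2 (0.47 for each), with an SE of 0.257 against 0.0925 for Mmp2. For Col1a2 the log2 fold changes were 0.17 and 0.029, and for Col3a1 -0.068 and 0.056, in the same order of time, with edgeR adjusted p-values from 0.493 to 0.932. No gene of the 6 was called between SCI 3d and SCI 1d, where 2.74% of tested IDs were called by edgeR. In that comparison 1 of the 6 genes, Mmp2, had an unadjusted p under 0.05, as had 2664 of the 15065 tested IDs. DESeq2 and limma-voom also called none of the 6, where they called 811 and 953 of all IDs.

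The extremes of the collagen levels in SCI 3d fell in the same libraries. SCI 3d replicate 2 had 852 CPM and replicate 3 had 767 CPM of Col3a1, while replicate 5 had 151 CPM and replicate 1 had 246 CPM. For Col1a1 the same pairs held the ends, with 428 and 465 CPM in replicates 2 and 3 and 122 and 149 CPM in replicates 5 and 1. SCI 3d replicate 5 was also the second shallowest library, and the part of depth in its low values was not tested.

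Fn1 encodes fibronectin. Its lowest, median and highest levels were 80.5, 93.5 and 111 CPM in SCI 1d, 63.5, 81.5 and 125 CPM in SCI 3d, 75.8, 90.1 and 149 CPM in SCI 12w, and 75.1, 83.4 and 95.7 CPM in SHAM. The groups overlapped at each time, and no comparison called the gene. The log2 fold changes against SHAM were 0.17 at 1 day (SE 0.150, edgeR adjusted p = 0.438), 0.039 at 3 days (SE 0.150, adjusted p = 0.894) and 0.26 at 12 weeks (SE 0.150, adjusted p = 0.223). The means ran from 101 CPM in SCI 12w through 95.2 in SCI 1d and 86.9 in SCI 3d to 84.6 CPM in SHAM, and no neighbours in that order were told apart. The SCI 12w mean leaned on replicate 3 with 149 CPM, and without that library the log2 fold change was 0.12 (edgeR adjusted p = 0.577).

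Lox encodes lysyl oxidase and had the lowest count of the 6 genes. Its lowest, median and highest levels were 3.50, 5.01 and 8.89 CPM in SCI 1d, 2.54, 6.09 and 9.80 CPM in SCI 3d, 1.39, 3.83 and 10.5 CPM in SCI 12w, and 2.41, 5.23 and 8.29 CPM in SHAM. The groups overlapped almost wholly, and the highest SCI 12w value was again that of replicate 3. The log2 fold changes against SHAM were 0.12, 0.14 and -0.15 in order of time, with SEs of 0.361, 0.367 and 0.369 and edgeR adjusted p-values of 0.842, 0.842 and 0.811. With errors of this size these data do not show that the level of Lox was the same in the groups. Without SCI 12w replicate 3 the 12 week value was -0.55 (adjusted p = 0.270), and without SCI 12w replicate 1 or SHAM replicate 5 it was slightly above 0, at 0.020 and 0.030.

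SCI 12w replicate 3 had the highest Fn1 and Lox levels of its group and the lowest level of Col1a2. It also had the lowest TMM factor of the 24 libraries, 0.879, where the others had 0.891 to 1.09. Whether the composition of its RNA takes part in these values was not tested.

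Ratios of genes within 1 library need no library scaling. Against SHAM, the ratio of Col1a1 to Col1a2 differed at 12 weeks and at 1 day, and that of Col1a1 to Col3a1 differed at 1 day and 3 days, while no difference in the ratio of Col1a1 to Col3a1 was detected at 12 weeks. Ratios of counts were tested for 4 pairs in 6 comparisons by two-sided exact permutation tests of the mean log2 ratio over all arrangements of the libraries. The p-values were adjusted over these 24 tests, and the smallest possible p is 0.00216, or 0.00649 adjusted here. In SCI 12w the Col1a1 to Col1a2 ratio was 0.387 to 0.538 with a median of 0.489, against 0.695 to 0.983 with a median of 0.827 in SHAM. The ranges did not overlap. The mean log2 ratio was lower by 0.82 in SCI 12w (difference -0.82, SE 0.106, exact permutation adjusted p = 0.00649). Col1a1 message was thus lower by more than Col1a2 message in SCI 12w relative to SHAM. Within the run of library numbers that holds SCI 12w and SCI 1d, the difference was -1.12 (SE 0.0909, exact permutation adjusted p = 0.00649). At 1 day this ratio went the other way, 0.903 to 1.17 in SCI 1d against the SHAM range above. The log2 difference was 0.30 (SE 0.0948, exact permutation adjusted p = 0.0280), between groups in different runs of library numbers. At 3 days it was 0.714 to 1.20, and the difference from SHAM of 0.16 was not called (SE 0.145, exact permutation adjusted p = 0.442).

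The ratio of Col1a1 to Col3a1 message differed from SHAM at the early times. In SCI 1d the Col1a1 to Col3a1 ratio was 0.713 to 0.855 with a median of 0.752, against 0.457 to 0.540 with a median of 0.528 in SHAM. Each SCI 1d library was above each SHAM library, although neither gene alone was called at 1 day. SCI 1d and SHAM are in different runs of library numbers, so run and group cannot be told apart. The log2 difference was 0.58 (SE 0.0598, exact permutation adjusted p = 0.00649), a 1.49-fold higher ratio. In SCI 3d the ratio was 0.502 to 0.807, still higher than in SHAM by a log2 difference of 0.29 (SE 0.0995, exact permutation adjusted p = 0.0216), within 1 run of library numbers. With medians in place of means the difference was 0.22 and was not called (exact permutation adjusted p = 0.148). Between SCI 3d and SCI 1d it was lower by a log2 difference of -0.29 (SE 0.0992, exact permutation adjusted p = 0.0297). These groups lie in different runs of library numbers, so run and time cannot be told apart. The call was lost with medians (-0.29, exact permutation adjusted p = 0.12) and without SCI 1d replicate 1, 3 or 4 or SCI 3d replicate 1, 2, 3 or 4, with differences of -0.22 to -0.29 and exact permutation adjusted p-values of 0.0519 to 0.0705. In SCI 12w the ratio was 0.421 to 0.647 with a median of 0.493, and its log2 difference from SHAM was -0.0053 (SE 0.106, exact permutation adjusted p = 0.959). Against SCI 1d, in the same run, it was -0.58 (SE 0.106, exact permutation adjusted p = 0.00649). The ratio of the other type I chain, Col1a2, to Col3a1 was not tested. At 12 weeks against SHAM the log2 fold change was -1.17 for Col1a2 and -1.99 for Col3a1.

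Relative to Col1a1, Mmp2 message was higher at 12 weeks than in SHAM. Lox message was higher than in SHAM by the test of means but not by that of medians. These ratios share Col1a1, whose lower level in SCI 12w moves both. The Mmp2 to Col1a1 ratio was 0.985 to 1.71 in SCI 12w, against 0.317 to 0.405 in SHAM, a log2 difference of 1.76 (SE 0.137, exact permutation adjusted p = 0.00649) with no overlap. The Lox to Col1a1 ratio was 0.0218 to 0.201 in SCI 12w, against 0.0137 to 0.0371 in SHAM. Its log2 difference was 1.64 (SE 0.477, exact permutation adjusted p = 0.0189), with overlap from SCI 12w replicate 1, which held 22 Lox counts. With medians the difference was 1.58 and was not called (exact permutation adjusted p = 0.0909). SCI 12w and SHAM are in different runs of library numbers. Against SCI 1d, in the same run as SCI 12w, the log2 difference was 1.73 for Mmp2 (SE 0.189, exact permutation adjusted p = 0.00649). For Lox it was 1.97 (SE 0.509, exact permutation adjusted p = 0.0115), and that call held with medians. Neither ratio was called at 1 day or at 3 days against SHAM, with log2 differences of 0.031 and 0.16 for Mmp2 and -0.32 and -0.067 for Lox and exact permutation adjusted p-values from 0.537 to 0.926.

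**Figure D3:**
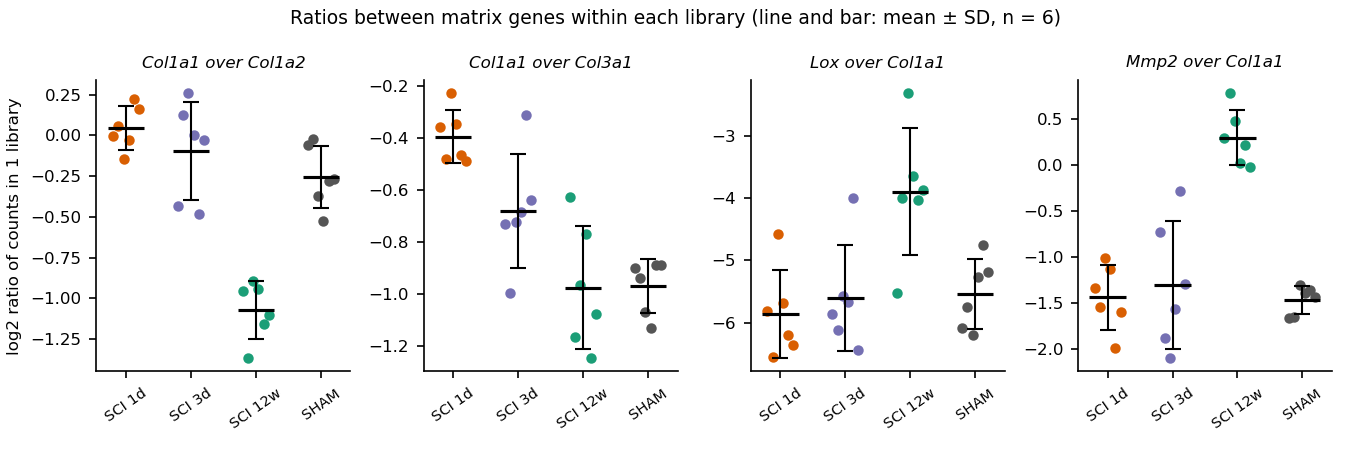
Log2 ratio of the counts of 2 genes within each library, for 4 pairs of genes, in SCI 1d, SCI 3d, SCI 12w and SHAM; axes differ between panels. Points are libraries, and lines with bars are the mean ± SD (n = 6). Col1a1 over Col3a1 is apart from SHAM in SCI 1d, and Col1a1 over Col1a2 and Mmp2 over Col1a1 are apart from SHAM in SCI 12w.

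Between libraries of 1 group the collagen chains moved together and the other genes did so less or not detectably. Each gene's log2 CPM was taken as its deviation from the group mean, and deviations were correlated over the 24 libraries, with 100000 permutations within groups and adjustment over 15 pairs. Col1a1 and Col1a2 had r = 0.96 and rho = 0.93, Col1a1 and Col3a1 r = 0.96 and rho = 0.92, and Col1a2 and Col3a1 r = 0.96 and rho = 0.95. The permutation p was 1e-05 for each of these by either measure, the smallest the permutations can give, with an adjusted p of 5e-05. Without the 2 libraries farthest from the median of the first gene r was 0.93, 0.94 and 0.95 in that order. Values of 1 library share its depth, scaling and tissue piece.

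Mmp2 deviated with the collagen chains to a lesser degree. Its r was 0.58 with Col1a1 (rho = 0.60), 0.55 with Col1a2 (rho = 0.59) and 0.49 with Col3a1 (rho = 0.57). The permutation p-values were 0.00129, 0.00157 and 0.00476 for r (adjusted p = 0.00471, 0.00471 and 0.0119) and 0.00229, 0.00283 and 0.0037 for rho (adjusted p = 0.00849, 0.00849 and 0.00925). Without the 2 farthest libraries r was 0.66, 0.58 and 0.54. Fn1 and Lox had r = 0.52 (permutation p = 0.0359, adjusted p = 0.0769) and rho = 0.35 (permutation p = 0.134), and r without the 2 farthest libraries was 0.20. The other 8 pairs had r between 0.12 and 0.27 with permutation adjusted p-values of 0.530 to 0.592.

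The link between the collagen chains was not detected within SCI 12w, where their coefficients of variation were 10.5 to 12.1%. That of Col1a2, 10.5%, leaned on replicate 3, its lowest library at 97.1 CPM. Within the 6 libraries of SCI 12w, r was 0.47 for Col1a1 and Col1a2, 0.071 for Col1a1 and Col3a1, and 0.51 for Col1a2 and Col3a1, with exact permutation adjusted p-values of 0.483, 0.875 and 0.483 over 12 such tests. In SCI 1d, SCI 3d and SHAM the same pairs had r from 0.93 to 1.00 with exact permutation adjusted p-values of 0.00417 to 0.0296. The difference in r between groups was not tested.

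**Figure D4:**
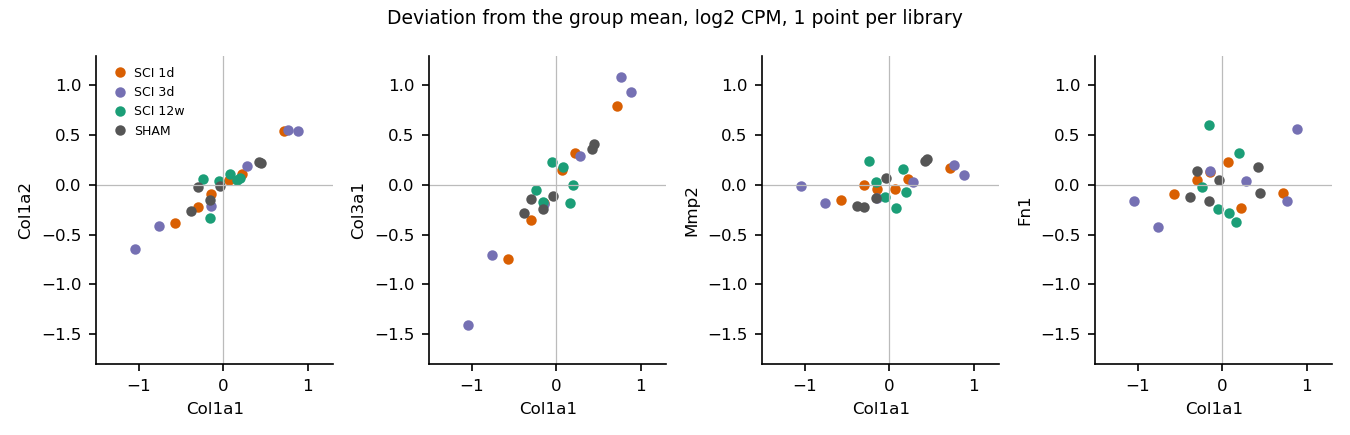
Deviation of Col1a2, Col3a1, Mmp2 and Fn1 from the group mean against that of Col1a1, in log2 CPM, with 1 point per library coloured by group. Col1a2 and Col3a1 lie close to a line through the 24 points (r = 0.96 for each), Mmp2 less so (r = 0.58), and Fn1 shows no clear relation (r = 0.27).

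The tested IDs whose level was most like the mean standardised profile of the 6 genes over the 24 libraries were ENSRNOG00000003736 and ENSRNOG00000007302, with r = 0.96 and r = 0.91. These r values include the differences between groups. The sources used here give these IDs no name. ENSRNOG00000003736 averaged 46.2 ± 3.47 CPM in SCI 12w and 63.4 ± 8.77 CPM in SHAM (SD, n = 6 in each). The log2 fold change was -0.46 (SE 0.105). ENSRNOG00000007302 averaged 56.0 ± 5.75 CPM in SCI 12w and 121 ± 37.0 CPM in SHAM, a log2 fold change of -1.11 (SE 0.193). Both IDs were chosen for a profile that holds the low collagen levels of SCI 12w, so these values are a description and no test is given. Of the 6 genes themselves, Col1a1 had r = 0.92 with this profile and Fn1 r = 0.25, so the profile is mainly that of the collagen chains and Mmp2.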

How the data were processed

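The authors deposited 1 table of raw counts by gene ID, for 24 left-ventricular libraries. Per the labels' protocols, total RNA was treated with DNase, depleted of ribosomal RNA, made into strand-specific libraries and sequenced as paired ends of 100 bases. The submitters' processing notes name FastQC 0.12.1, STAR 2.7.11a, featureCounts 2.0.6 and the build mRatBN7.2. Annotation release, strand setting and multi-mapping treatment were not given in the sources used here. Antisense or overlapping genes may share reads with the genes described. The table has 26166 lines for 23098 gene IDs. The 781 repeated IDs hold identical counts on each line and were used once, and each of the 6 genes has 1 line. Even numbers made up 58.1 to 61.1% of the counts between 1 and 200 in each library, so a count may not be 1 independent fragment.

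Tests used edgeR 4.0.16 under R 4.3.3 (filterByExpr by group, TMM, 1 quasi-likelihood fit over 24 libraries with a term per group, 20 residual degrees of freedom, two-sided contrasts). The SE of a log2 fold change was derived from its F statistic. CPM uses TMM-adjusted totals, and log2 CPM a prior count of 2. Within-library ratios are of counts + 0.5. DESeq2 1.42.0, limma 3.58.1 and the other alternatives are in the closing section. The procedures were tested on simulated data with known changes. No library pair agreed within sampling noise (chi-square per degree of freedom 14.4 to 216).

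The 6 genes and the lists were chosen with earlier results of these data known. The genes named are the 6 and the 2 tested IDs with the highest r with their mean profile. Lists of other matrix genes and cell type markers were written by symbol, and none of the tables used here pairs symbols with these IDs, so they were not run. The replicate numbers of the labels were not treated as pairs, for the reason given in the closing section.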

Additional observations from a re-analysis of the deposited data

Results flagged for a closer look

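In 40 sets of 6 values (6 genes and 4 ratios in 4 groups), 4 had a library whose gap to the nearest other value was over 0.625 of the group's range. Chance flags about 1 set in 20 where values are independent and normally distributed. The ratios were flagged without taking log2, and each of the 4 ratios tested contains Col1a1. The flagged ratios were all of Lox over Col1a1, and the other flag was a Col1a2 level. Whether the flags hold on the log2 scale was not tested. Col1a2 was lowest in SCI 12w replicate 3 at 97.1 CPM, where the other 5 libraries had 126 to 132 CPM. That library also had the highest Fn1 and Lox levels of its group. The Lox to Col1a1 ratio was highest in SCI 1d replicate 3 at 0.0422, with the others at 0.0107 to 0.0195. It was highest in SCI 3d replicate 5 at 0.0626, with the others at 0.0116 to 0.0211. In SCI 12w replicate 3 it was 0.201, with the others at 0.0218 to 0.0800.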

How the results depend on the processing

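The calls of Col1a1, Col1a2 and Col3a1 in the comparisons of SCI 12w with SHAM, SCI 1d and SCI 3d, and those of Mmp2 in SCI 1d against SHAM and in SCI 12w against SCI 1d and SCI 3d, kept their direction and their side of the threshold under each of the 10 other settings and without any 1 of the 24 libraries. The settings were other low-count filters, RLE size factors, total counts without the 100 most abundant IDs, DESeq2, limma-voom with sample weights, only the 2 groups compared, a replicate block, thinned counts and, chosen after seeing the data, no shallow libraries. The count of 1 matrix gene called in SCI 3d against SHAM, Mmp2, was 0 when each ID with a count was kept (edgeR adjusted p = 0.0501), likewise in a fit of the SCI 3d and SHAM libraries alone (edgeR adjusted p = 0.0502), and 0 to 1 without single libraries. The 413 IDs called between SCI 3d and SCI 1d were 811 with DESeq2, 953 with limma-voom, 259 with only the 2 groups compared, 650 without the 2 shallowest libraries and 170 to 653 without single libraries (170 without SCI 1d replicate 5, 185 without SCI 3d replicate 4, 653 without SCI 12w replicate 3).

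Signs turned only for log2 changes that were not called. Lox in SCI 3d against SCI 1d was -0.14 with limma-voom, -0.037 with the replicate block and -0.074 without the 2 shallowest libraries. Lox against SHAM was -0.022 in SCI 3d with the replicate block, and in SCI 12w 0.019 with thinned counts and 0.020 without the 2 shallowest libraries. Fn1 in SCI 12w against SCI 1d was -0.057 with limma-voom. Without single libraries the ranges that crossed 0 were -0.090 to 0.14 for Col1a2 in SCI 3d against SHAM, -0.26 to 0.058 and -0.19 to 0.24 for Col3a1 in SCI 1d and SCI 3d against SHAM, -0.12 to 0.32 for Col3a1 in SCI 3d against SCI 1d, -0.091 to 0.11 for Fn1 in SCI 3d against SHAM and -0.052 to 0.16 in SCI 12w against SCI 1d. For Lox they were -0.049 to 0.30, -0.083 to 0.32 and -0.55 to 0.030 in SCI 1d, SCI 3d and SCI 12w against SHAM, and -0.21 to 0.19 in SCI 3d against SCI 1d.

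Among the ratios, tests of medians lost the call for Col1a1 over Col3a1 in SCI 3d against SHAM (0.22) and against SCI 1d (-0.29) and for Lox over Col1a1 in SCI 12w against SHAM (1.58). They turned Mmp2 over Col1a1, not called, to -0.025 in SCI 1d and -0.012 in SCI 3d against SHAM. Without the 2 shallowest libraries Col1a1 over Col3a1 in SCI 12w against SCI 3d was called (-0.29), Lox over Col1a1 in SCI 3d against SCI 1d was -0.069, and Mmp2 over Col1a1 in SCI 3d was -0.046 against SHAM and -0.077 against SCI 1d. Without single libraries Col1a1 over Col3a1 ranged from -0.36 to -0.22 in SCI 12w against SCI 3d (called without SCI 12w replicate 1), -0.075 to 0.049 in SCI 12w against SHAM and -0.36 to -0.22 in SCI 3d against SCI 1d. Lox over Col1a1 ranged from -0.069 to 0.51 in SCI 3d against SCI 1d and -0.39 to 0.10 against SHAM, and Mmp2 over Col1a1 from -0.053 to 0.14 in SCI 1d and -0.046 to 0.32 in SCI 3d against SHAM, and -0.077 to 0.29 in SCI 3d against SCI 1d. The cause of these differences was not tested.

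Libraries with the same replicate number in different groups had deviations correlated at -0.18 to 0.15 (median -0.012 over 36 pairs). Those with different numbers had -0.15 to 0.15 (median 0.0033 over 180 pairs). No pairing was detected, and the numbers are not treated as pairs. Weak correlation cannot show that no pairing existed. With the replicate block 1, 1, 3, 0, 4 and 4 of the 6 genes were called in the order of the comparisons with SHAM (1 day, 3 days, 12 weeks), SCI 3d against SCI 1d, and SCI 12w against SCI 1d and SCI 3d, the counts found without it. Of all tested IDs the block called 3420, 2406, 3068, 298, 4784 and 4473 in that order. Adjusted p-values of Col1a1 in SCI 12w against SHAM were at most 0.000131 over the other settings. Alternatives planned for lists of other matrix genes were not run, since the lists were not. The correlations kept their side of the threshold with RLE factors and without the 2 farthest libraries.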
